A study of Mus musculus with 18 samples.

Results

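Heat production in beige fat cells relies on a small set of proteins, and 10 genes linked with it were followed here: Ucp1, Cidea, Dio2, Elovl3, Cox7a1, Cox8b, Acot11, Plin5, Ppargc1a and Kcnk3. The name effector genes is used below as a label for this set and does not state that each of them raises heat production. The 10 genes were chosen by name, with earlier results of these data known. Each name matched 1 row of both deposited tables, so that 10 of 21899 gene IDs are described. RNA was sequenced from inguinal white fat, a subcutaneous depot, of male C57BL/6J mice that carried no named allele. Some mice had received an injection beneath the skin of LLC, the Lewis lung carcinoma line of mouse tumour cells, and the controls had received phosphate-buffered saline (PBS). Tissue was taken 7 days later, a stage the labels call pre-cachexia, or 21 days later, called cachexia, the wasting that accompanies some tumours. There were 4 PBS and 5 LLC libraries on each day, 18 in all. The age of the mice is not given in the sources used here, and nothing states that libraries of a group came from separate mice, so that the p-values below speak of the spread among libraries, part of which may be technical.

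Beige cells sit among the white fat cells of this depot and resemble brown fat cells when they are active. Noradrenaline released by sympathetic nerves acts on beta-adrenergic receptors, raises cyclic AMP and activates protein kinase A, which frees fatty acids from the lipid droplet and switches on genes of heat production. Ucp1 encodes the uncoupling protein of the inner mitochondrial membrane, which lets protons return to the matrix without making ATP, so that the energy of the fatty acids appears as heat. Dio2 makes the active thyroid hormone inside the cell, and Ppargc1a encodes a coactivator of mitochondrial genes and of Ucp1 itself. Cidea and Plin5 coat lipid droplets, Elovl3 lengthens fatty acids, Acot11 cleaves fatty acyl-CoA and Kcnk3 forms a potassium leak channel. Cox7a1 and Cox8b encode subunits of cytochrome c oxidase that heart, skeletal muscle and brown fat use in place of the forms found in most tissues.

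The main observations were these. At day 7 Ucp1 was 38.8-fold higher in LLC than in PBS fat and was the 1 gene of 13445 past the threshold. Of the other effector genes, 8 were higher and Ppargc1a was lower, and none of these 9 passed in edgeR. At day 21 all 10 lay below PBS in LLC fat, with 0 past the threshold in edgeR. The change of the tumour effect between the days was negative for all 10 and passed for Acot11.

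Promoter sequences are shown for 4 of these genes because the cyclic AMP signal acts through DNA elements that can be searched for, and because these genes moved differently in the tables. Ucp1 and Dio2 were higher in every LLC library of day 7 than in any PBS library, Ppargc1a was not, and Cox8b was the 1 member lower in every LLC library of day 21. RefSeq promoters (build GRCm38.p6) were found for 7 of the 10 members, and none is printed for the other 3, Cidea, Elovl3 and Kcnk3. Cidea and Elovl3 were also higher in every LLC library of day 7 than in any PBS library, and their promoters could not be searched. Each line gives the 250 bases before the start site, 5′ to 3′ on the strand of the gene, in lower case. Capitals mark a cyclic AMP response element (TGACGTCA) or its core TGACG, a nuclear receptor core site (AGGTCA) or a TATA box (TATAAA), read on either strand. The full element contains the core, so 1 site can count for both.
Ucp1 (chr8:83290098-83290347, plus strand): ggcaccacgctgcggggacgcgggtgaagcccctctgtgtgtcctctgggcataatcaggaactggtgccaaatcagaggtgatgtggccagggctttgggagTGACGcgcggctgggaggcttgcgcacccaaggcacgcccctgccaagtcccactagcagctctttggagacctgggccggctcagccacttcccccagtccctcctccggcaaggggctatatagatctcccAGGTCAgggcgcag
Dio2 (chr12:90739039-90739288, minus strand): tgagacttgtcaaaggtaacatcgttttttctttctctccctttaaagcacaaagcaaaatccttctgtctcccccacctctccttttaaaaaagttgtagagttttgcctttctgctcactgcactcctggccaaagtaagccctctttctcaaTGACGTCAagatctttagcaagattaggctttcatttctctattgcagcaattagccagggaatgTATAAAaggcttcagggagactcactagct
Ppargc1a (chr5:51567726-51567975, minus strand): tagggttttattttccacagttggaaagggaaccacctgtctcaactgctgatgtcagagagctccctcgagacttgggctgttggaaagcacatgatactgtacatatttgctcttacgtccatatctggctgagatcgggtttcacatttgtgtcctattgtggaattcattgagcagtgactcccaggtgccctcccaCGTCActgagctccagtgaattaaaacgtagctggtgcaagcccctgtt
Cox8b (chr7:140900447-140900696, minus strand): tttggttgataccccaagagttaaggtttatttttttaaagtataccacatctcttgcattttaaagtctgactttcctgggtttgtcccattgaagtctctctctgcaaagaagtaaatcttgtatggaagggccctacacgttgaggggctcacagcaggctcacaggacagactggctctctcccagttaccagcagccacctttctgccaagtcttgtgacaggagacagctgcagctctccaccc
The Ucp1 window held TGACG from base -147 and AGGTCA from base -14, counted back from the start site. The Dio2 window held the full TGACGTCA from base -95 and TATAAA from base -30. In the Ppargc1a window the core lay on the opposite strand, from base -49. No capital appears in the Cox8b window, and none was found in those of Cox7a1 and Acot11. The first of 2 windows of Plin5 held AGGTCA from base -170, and neither held TGACG. Plin5 too was higher in every LLC library of day 7 than in any PBS library. A link between these sites and the levels was not tested. Over 32817 promoters of the same length, TGACGTCA occurred in 1.55%, TGACG in 17.7%, AGGTCA in 14% and TATAAA in 12.4%. The estrogen-related receptor element TCAAGGTCA, in 0.387% of promoters, and the direct repeat bound by PPAR receptors, in 0.0335%, were in no member's window. A match shows only that these letters are present. Bases farther from the start site were not searched.

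Levels are given in TPM, a measure of transcript abundance that corrects for transcript length and library size, so that genes can be set beside each other. Tests were run on counts. In PBS fat of day 7 the level ran from 0.171 ± 0.158 TPM for Elovl3 (SD, n = 4) to 115 ± 46.6 TPM for Cox8b. Cox8b, Cidea and Kcnk3 held the first 3 places in all 4 groups. The order of the first pair was not resolved: at day 21 in PBS, Cox8b measured 200 ± 39.4 TPM and Cidea 197 ± 64.6 TPM. Ucp1 ranked 8th in PBS at day 7, 4th in LLC at day 7, 6th in PBS at day 21 and 7th in LLC at day 21. In LLC at day 7 its mean of 31.8 ± 13.6 TPM (n = 5) lay within the spread of Kcnk3 just above it, 34.1 ± 8.45 TPM. Dio2 and Elovl3 were the lowest 2 in every group.

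**Figure D1:**
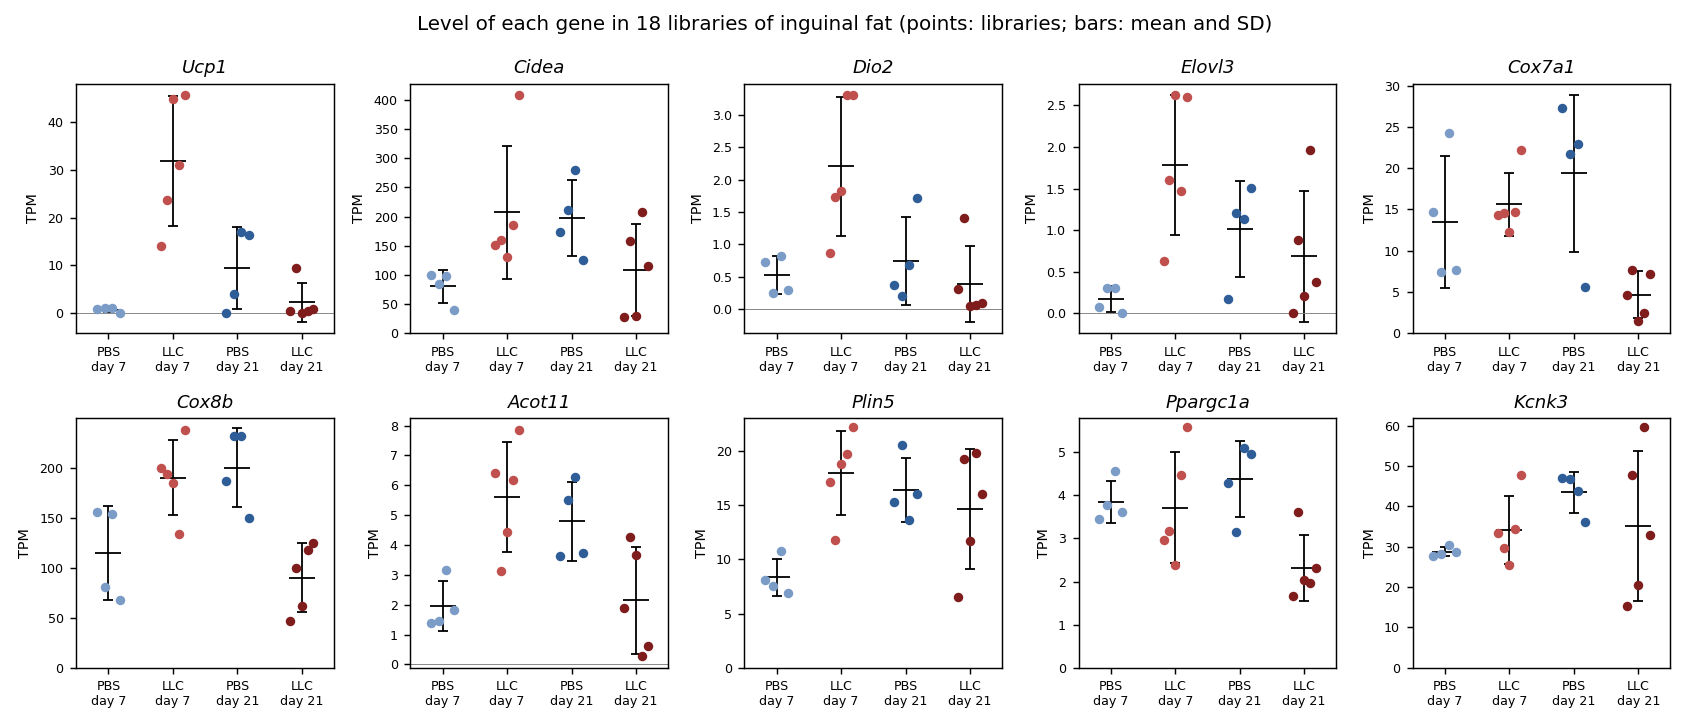
Level of each of the 10 genes in TPM (vertical axes, linear, each panel with its own scale) by group on the horizontal axis. Points are libraries and bars the mean and SD (n = 4 for PBS, n = 5 for LLC); for Ucp1 the 5 LLC libraries of day 7 lie between 14.1 and 45.6 TPM, above the PBS libraries of that day, which reach 1.14 TPM.

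The tissue carried the markers of mature fat cells. All 15 markers of mature fat cells were above 0 in each of the 18 libraries, with a summed level between 57909 and 95600 TPM. Adipoq, the hormone adiponectin, ran from 2166 to 3922 TPM. Zic1, a marker of the classical brown depot between the shoulder blades, did not exceed 0.129 TPM in any library. Other brown depot markers were present. The list of 5 that holds Zic1 summed to 29 TPM at the lowest, in PBS at day 21, and 69.8 TPM at the highest, in LLC at day 21. Markers of skeletal muscle were uneven: Acta1, actin of muscle fibres, ran from 0.63 to 1839 TPM, and Ckm and Myh4, muscle creatine kinase and a fast myosin, reached 804 and 928 TPM. Their sum over 20 genes was 9217 TPM in PBS library 3 and 2639 TPM in LLC library 3 of day 7. At day 21 it was 7876 and 1502 TPM in PBS libraries 1 and 2 and 2764 and 880 TPM in LLC libraries 2 and 5, while the other 12 libraries ran from 58.3 to 164 TPM. At day 21 the fat cell sum was lowest in LLC libraries 1 (58522 TPM) and 3 (68840 TPM) and 76483 TPM or more in the other 7. In bulk tissue, fewer cells of a type and less RNA per cell cannot be told apart. Total counts ran from 14566155 to 18969387 per library.

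Ucp1 (ENSMUSG00000031710; GRCm38 chr8:83290352-83298452) was nearly silent in control fat at day 7. The PBS libraries measured 0.927, 1.1, 1.14 and 0.077 TPM, from 13, 15, 16 and 1 counts. The LLC libraries measured 14.1, 23.6, 44.8, 31 and 45.6 TPM, from 197 to 654 counts. The lowest LLC library thus stood far above the highest PBS library. The log2 difference was 5.28 ± 0.51 (SE; edgeR quasi-likelihood test, adjusted p = 0.00802). Ucp1 was 1 of 10 members past the threshold, and 0.00744% of the 13445 genes tested were. In the authors' deposited table its log2 ratio of mean TPM was 5.29 with an FDR of 1.61e-15.

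The call depended on which control libraries were present. Adjusted p was 0.0988 without PBS library 1, 0.0933 without library 2 and 0.053 without library 3, with log2 differences of 5.38, 5.43 and 5.49. Without library 4, which had 1 count, the difference was 4.88 and adjusted p = 0.026. In 1 fit of all 18 libraries, where the spread is shared with day 21, the difference was 5.27 and adjusted p = 1. Without the libraries high in muscle genes the difference was as large, 5.38, and did not pass (adjusted p = 0.144).

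Neither of the other uncoupling proteins passed the test at day 7. Ucp2, found in many cell types, measured 147 ± 28.8 TPM in PBS and 173 ± 43.1 TPM in LLC at day 7 (log2 0.28 ± 0.16, edgeR adjusted p = 0.682). Ucp3, known from skeletal muscle and brown fat, measured 45.7 ± 9.19 and 42.5 ± 10.3 TPM (log2 -0.08 ± 0.22, adjusted p = 0.954). The mean level of each was above that of Ucp1 in all 4 groups. Of the summed TPM of the 3 genes, Ucp1 made up 0.0343% to 0.579% in PBS and 6.9% to 21% in LLC at day 7. At day 21 its share ran from 0.0956% to 12.6% in PBS and from 0% to 4.07% in LLC.

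Dio2 (ENSMUSG00000007682; GRCm38 chr12:90724552-90738438), the deiodinase that activates thyroid hormone, measured 0.727, 0.244, 0.815 and 0.295 TPM in PBS at day 7. In LLC it measured 0.861, 1.73, 1.82, 3.31 and 3.31 TPM. The groups did not overlap, though LLC library 1 lay close to PBS library 3. The difference of log2 2.08 ± 0.49 did not pass in edgeR (adjusted p = 0.383) and did in DESeq2 (adjusted p = 0.00809). Its relative Dio1 was at or below 0.155 TPM in every library of day 7. Dio3, which inactivates the hormone, measured 0.209 ± 0.0382 TPM in PBS and 0.642 ± 0.374 TPM in LLC on that day.

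Elovl3 (ENSMUSG00000038754; GRCm38 chr19:46131897-46135694), an elongase of very long fatty acids that cold induces in brown fat, was at the edge of detection. PBS libraries at day 7 held 1, 4, 5 and 0 counts (0.073, 0.302, 0.309 and 0 TPM) and LLC libraries 10, 29, 43, 24 and 38 counts (0.624, 1.6, 2.62, 1.47 and 2.6 TPM). The log2 difference of 3.39 ± 0.65 did not pass in edgeR (adjusted p = 0.334) and did in DESeq2 (3.45 ± 0.69, adjusted p = 0.00104). Elovl5 and Elovl6, which act on other chain lengths, measured 111 ± 13.3 and 73.7 ± 22.4 TPM in PBS and 134 ± 18.3 and 87.3 ± 26.3 TPM in LLC. The level of these relatives was far above that of Elovl3 in each group.

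Acot11 (ENSMUSG00000034853; GRCm38 chr4:106744555-106804998) encodes a cold-induced acyl-CoA thioesterase. It measured 1.39, 1.45, 3.16 and 1.81 TPM in PBS at day 7. In LLC it measured 6.42, 3.12, 4.45, 6.16 and 7.86 TPM. The groups overlapped only through LLC library 2 (3.12) and PBS library 3 (3.16). The difference was log2 1.64 ± 0.31 (edgeR adjusted p = 0.334; DESeq2 adjusted p = 0.000208). The GENCODE annotation lists 7 transcripts of this gene, and the annotation that the submitters used is not named. Counts and TPM did not order these libraries alike: the 162 counts of LLC library 2 exceeded the 123 of PBS library 3. The reason was not tested.

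Plin5 (ENSMUSG00000011305; GRCm38 chr17:56111601-56117596), which ties lipid droplets to mitochondria, measured 8.11, 7.57, 10.8 and 6.86 TPM in PBS and 17.1, 11.8, 18.8, 19.7 and 22.2 TPM in LLC at day 7. Each LLC library exceeded each PBS library. The difference of log2 1.11 ± 0.21 had an edgeR adjusted p of 0.334 and a DESeq2 adjusted p of 0.00123. Of the RNA of the 5 perilipins, Plin5 made up 0.353 ± 0.0985% in PBS and 0.781 ± 0.171% in LLC. Plin1, the main perilipin of white fat cells, was at 1306 ± 142 and 1157 ± 95.6 TPM.

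Cidea (ENSMUSG00000024526; GRCm38 chr18:67343604-67367785) favours the growth of lipid droplets and is a common marker of brown and beige cells. Its PBS libraries at day 7 measured 99.4, 85, 97.3 and 39.4 TPM and its LLC libraries 151, 159, 131, 186 and 409 TPM. The groups did not overlap, and LLC library 5 stood well above the other 4. The difference was log2 1.39 ± 0.41 (edgeR adjusted p = 0.408; DESeq2 adjusted p = 0.213). Its relative Cidec, a fat cell gene, measured 1762 ± 101 and 1944 ± 297 TPM. Cidea made up 4.34 ± 1.49% of the RNA of Cidea, Cideb and Cidec in PBS and 9.3 ± 3.31% in LLC.

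The oxidase subunits differed less at day 7. Cox8b (ENSMUSG00000025488; GRCm38 chr7:140898945-140900446) measured 156, 81.2, 154 and 68 TPM in PBS and 200, 194, 185, 134 and 238 TPM in LLC (log2 0.73 ± 0.30, edgeR adjusted p = 0.558). LLC library 4 lay below PBS libraries 1 and 3. Cox7a1 (ENSMUSG00000074218; GRCm38 chr7:30184144-30186078) measured 14.7, 7.35, 24.3 and 7.6 TPM in PBS and 14.3, 14.5, 12.3, 14.7 and 22.2 TPM in LLC (log2 0.20 ± 0.39, adjusted p = 0.929). The highest Cox7a1 value, PBS library 3, belongs to the library with the highest sum of muscle markers. Without the libraries high in muscle genes the log2 difference was 0.76 (adjusted p = 0.712).

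Ppargc1a (ENSMUSG00000029167; GRCm38 chr5:51454250-51567726) and Kcnk3 (ENSMUSG00000049265; GRCm38 chr5:30588170-30625271) did not separate the groups at day 7. Ppargc1a ran from 3.46 to 4.55 TPM in PBS and from 2.39 to 5.58 TPM in LLC (log2 -0.12 ± 0.26, edgeR adjusted p = 0.941), and without the libraries high in muscle genes its difference was 0.14. Kcnk3 ran from 27.8 to 30.4 TPM in PBS, a narrow spread, and from 25.4 to 47.9 TPM in LLC (log2 0.28 ± 0.19, adjusted p = 0.728).

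The set was chosen with earlier results of these data known, so its shares here and at day 21 are a description only. As a set at day 7, 9 of the 10 lay above PBS in LLC with a median log2 difference of 1.25. Of all genes 51.1% did so, and their median was 0.00. At an unadjusted p under 0.05 there were 7 of the 10, and 1144 of the 13445 genes tested. DESeq2 called 5 (Ucp1, Dio2, Elovl3, Acot11 and Plin5) beside 0.378% of all genes called higher. The authors' deposited table gives an FDR under 0.05 with LLC higher to the same 5 genes and to 0.205% of all. TPM did not overlap, with LLC higher, for 5 members (Ucp1, Cidea, Dio2, Elovl3 and Plin5) and for 0.848% of all genes. LLC library 5 held the highest value of its group for 9 of the 10 genes, and PBS library 3, the one richest in muscle markers, for 8.

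**Figure D2:**
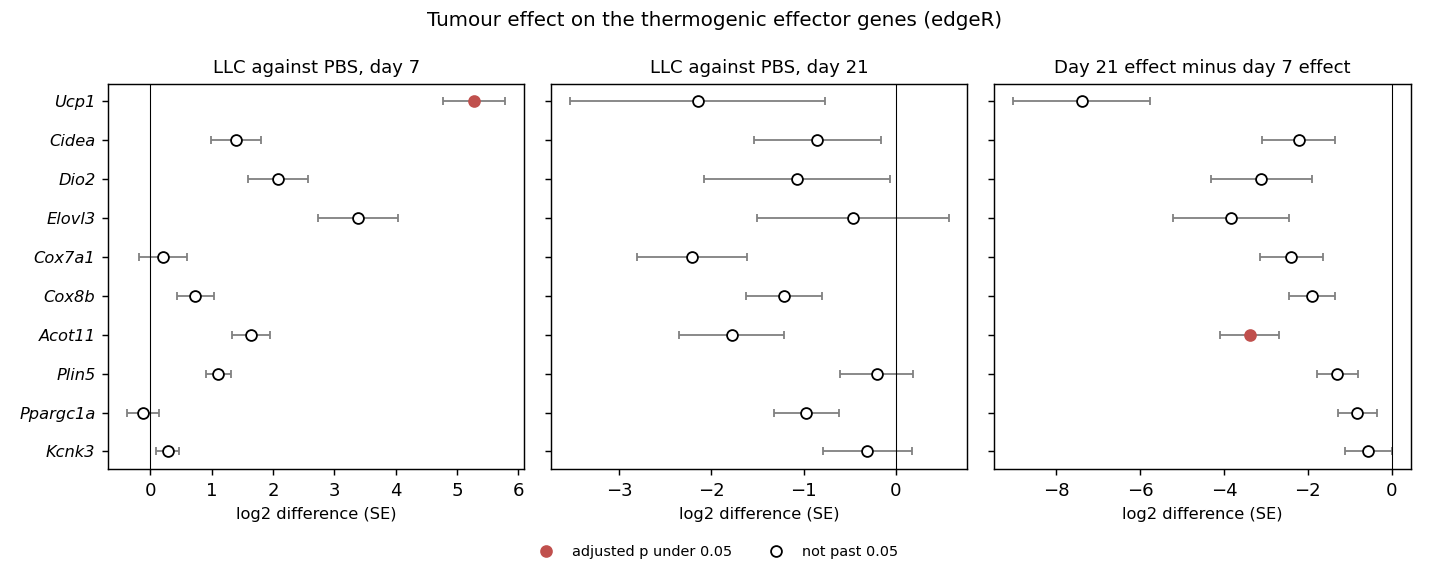
Log2 difference of LLC against PBS with its SE (horizontal axes) for each gene (rows) at day 7, at day 21 and for the day 21 effect minus the day 7 effect. Filled points passed an adjusted p of 0.05 in edgeR: Ucp1 at day 7 (5.28) and Acot11 in the difference between days (-3.39); the points lie mostly right of 0 at day 7 and left of 0 in the other 2 panels.

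By day 21 the picture in LLC fat was different. Ucp1 measured 0.557, 9.48, 0, 0.569 and 0.867 TPM in the 5 LLC libraries, from 8, 149, 0, 11 and 12 counts. A count of 0 allows up to 3 counts. In PBS it measured 0.135, 4.07, 17 and 16.3 TPM. The control libraries themselves thus spanned the whole range, from 2 to 273 counts, and the groups overlapped. The log2 difference was -2.15 ± 1.38 (edgeR adjusted p = 0.362; DESeq2 adjusted p = 0.398). Without LLC library 2, the one at 9.48 TPM, it was -4.33 (edgeR adjusted p = 0.107). Without the libraries high in muscle genes, LLC library 2 among them, it was -5.50 (0.63). Ucp3 measured 54 ± 16.3 TPM in PBS and 24.7 ± 12.2 TPM in LLC (log2 -1.30 ± 0.35, edgeR adjusted p = 0.0926).

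The oxidase subunits were low in LLC fat at day 21. Cox7a1 measured 27.3, 21.7, 22.9 and 5.57 TPM in PBS. In LLC it measured 4.63, 7.68, 1.4, 2.37 and 7.22 TPM. Of the PBS libraries, number 4 alone lay among the LLC values. The difference of log2 -2.21 ± 0.60 did not pass in edgeR (adjusted p = 0.0942) and did in DESeq2 (adjusted p = 0.00838), in the authors' deposited table (FDR 0.0137) and in edgeR without PBS library 4 (-2.53, adjusted p = 0.0227). Without that library, calls over all genes rose as well, as given below.

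Cox8b measured 187, 232, 232 and 150 TPM in PBS and 46.8, 100, 61.5, 118 and 125 TPM in LLC at day 21. It was the 1 of 10 members whose groups did not overlap, with LLC lower, as they did for 2.06% of all genes. Its log2 difference was -1.21 ± 0.41 (edgeR adjusted p = 0.131; DESeq2 adjusted p = 0.0439). The general forms of these subunits differed less: Cox8a measured 1263 ± 169 TPM in PBS and 1042 ± 188 TPM in LLC (log2 -0.37 ± 0.27, edgeR adjusted p = 0.427), and Cox7a2 249 ± 38.6 and 208 ± 48.8 TPM (log2 -0.34 ± 0.30, adjusted p = 0.493). Cox8b made up 13.6 ± 1.63% of Cox8a and Cox8b RNA in PBS (11.7% to 15.1%) and 7.76 ± 1.86% in LLC (5.67% to 9.47%). The same share at day 7 was 9.96 ± 3.3% in PBS and 14.9 ± 1.9% in LLC. For Cox7a1 the share of Cox7a1 and Cox7a2 was 6.85 ± 2.76% in PBS and 2.32 ± 1.51% in LLC at day 21.

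**Figure D3:**
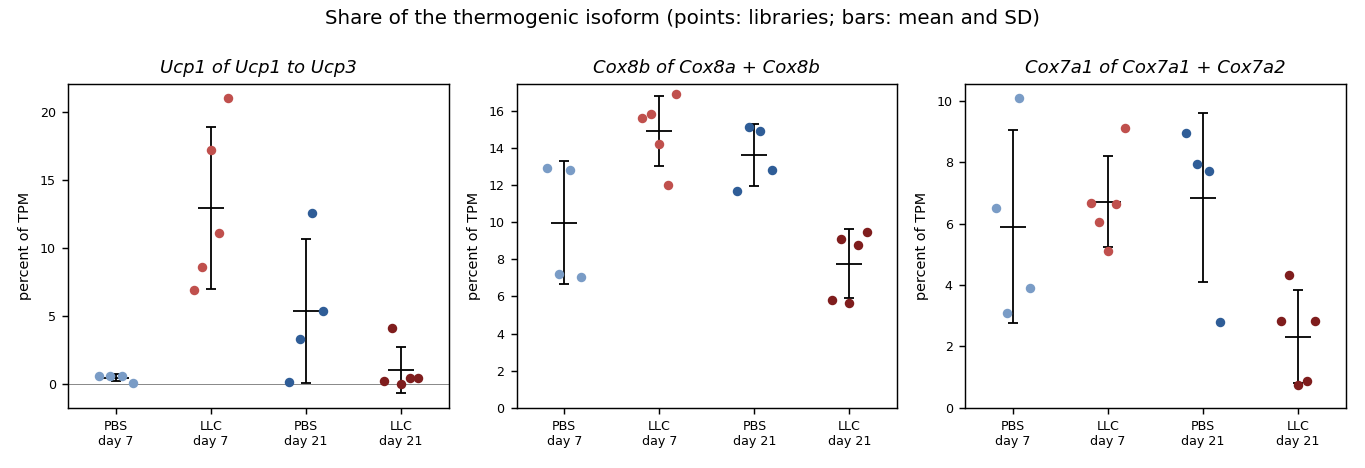
Share of TPM (vertical axes, percent) held by Ucp1 among Ucp1 to Ucp3, by Cox8b among Cox8a and Cox8b, and by Cox7a1 among Cox7a1 and Cox7a2, by group. Points are libraries and bars the mean and SD; the Cox8b share lies between 5.67% and 9.47% in LLC at day 21, below the PBS libraries of that day (11.7% to 15.1%).

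Both subunits are also made in skeletal muscle, whose markers moved with some libraries. The highest Cox7a1 value of day 21, 27.3 TPM, was in PBS library 1, with a muscle sum of 7876 TPM. PBS library 3, with a muscle sum of 150 TPM, measured 22.9 TPM. Without the libraries high in muscle genes the differences at day 21 were -2.58 for Cox7a1 and -1.35 for Cox8b, beside -2.21 and -1.21 with them (edgeR adjusted p = 0.63 and 0.631, from 5 libraries). The part of muscle in these differences was not tested.

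**Figure D4:**
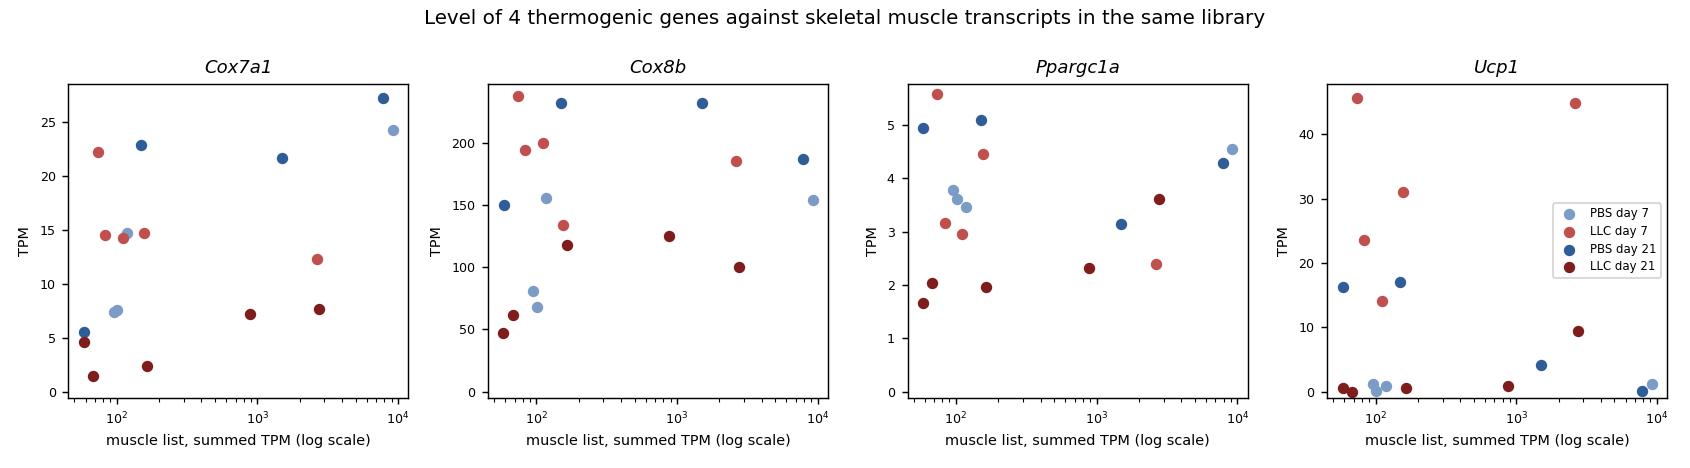
Level of Cox7a1, Cox8b, Ppargc1a and Ucp1 (vertical axes, TPM) against the summed TPM of 20 skeletal muscle genes (horizontal axes, log scale); each point is 1 of 18 libraries, coloured by group. The 2 libraries richest in muscle markers (7876 and 9217 TPM) hold the 2 highest Cox7a1 values (27.3 and 24.3 TPM), and the 5 LLC libraries of day 21 lie between 1.4 and 7.68 TPM of Cox7a1.

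Acot11 at day 21 measured 3.64, 5.51, 6.28 and 3.72 TPM in PBS and 1.88, 4.27, 3.67, 0.268 and 0.623 TPM in LLC. LLC libraries 4 and 5 were the lowest of all 18 for this gene, and their fat cell sums were 95589 and 95600 TPM. The part of fat cell content was not tested in these libraries. The difference on counts was log2 -1.78 ± 0.57 (edgeR adjusted p = 0.12, DESeq2 adjusted p = 0.0263). On TPM it was -1.16 as the authors' ratio of means, -1.07 in limma on log2(TPM + 1) and -1.63 on log2(TPM + 0.1). Counts and TPM differed here too: LLC library 3 had 85 counts for 3.67 TPM, and PBS library 4 had 181 for 3.72 TPM. The reason was not tested. Ppargc1a ran from 3.15 to 5.09 TPM in PBS and from 1.66 to 3.62 TPM in LLC, overlapping only through PBS library 2 and LLC library 2 (log2 -0.97 ± 0.35, edgeR adjusted p = 0.148; DESeq2 adjusted p = 0.0757).

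The remaining genes were spread widely among the LLC libraries of day 21. Cidea measured 28.2, 158, 29.1, 208 and 115 TPM there and 174, 211, 279 and 125 TPM in PBS (log2 -0.85 ± 0.69, edgeR adjusted p = 0.465). Its low values were in LLC libraries 1 and 3, the ones lowest in fat cell markers. Kcnk3 showed the same pair as lowest, with 15.2 and 20.4 TPM against 47.7, 59.6 and 32.8 TPM in the others and 36.2 to 47 TPM in PBS (log2 -0.31 ± 0.48, adjusted p = 0.712). Plin5 ran from 6.54 to 19.8 TPM in LLC and from 13.6 to 20.5 TPM in PBS (log2 -0.21 ± 0.40, adjusted p = 0.774). Dio2 measured 0.302, 1.41, 0.052, 0.066 and 0.092 TPM in LLC and 0.363, 0.205, 0.684 and 1.72 TPM in PBS (log2 -1.07 ± 1.01, adjusted p = 0.531). The Dio2 difference was -2.75 without LLC library 2 (0.0884) and -0.30 without PBS library 4 (0.873). Elovl3 ran from 0 to 1.97 TPM in LLC and from 0.177 to 1.51 TPM in PBS (log2 -0.47 ± 1.04, adjusted p = 0.799). Leaving out LLC library 1 or LLC library 4 moved 4 of these differences: Cidea to -0.54 or -1.43, Kcnk3 to -0.04 or -0.78, Elovl3 to -0.11 or -1.60 and Plin5 to 0.06 or -0.50.

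As a set at day 21, 10 of 10 were lower in LLC with a median log2 difference of -1.02, where 51.9% of all genes were higher and the median of all was 0.02. In edgeR 0 of the 10 and 0.0885% of all genes passed. At an unadjusted p under 0.05 there were 4 (Cox7a1, Cox8b, Acot11 and Ppargc1a), and 3164 of 13564 genes. DESeq2 called 3, all lower (Cox7a1, Cox8b and Acot11), beside 5.19% of all genes called lower. The authors' deposited table lists 2 (Cox7a1 and Cox8b), beside 1.31% of genes. In the 1 fit of all 18 libraries edgeR called Cox7a1 (adjusted p = 0.0124), Cox8b (0.0403) and Acot11 (0.0209). Calls over all genes also rose far above 0.0885% in that fit, as given below, so these calls are not read as particular to the members.

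Marker levels of several cell types differed between the groups at day 21, which does not show whether cell content did. Fat cell sums overlapped, at 76483 to 94597 TPM in PBS and 58522 to 95600 TPM in LLC. Without LLC libraries 1 and 3, 7 of 10 were lower with a median of -0.55, and Kcnk3 (0.19), Elovl3 (0.22) and Plin5 (0.23) were higher. With the mean level of the 15 fat cell markers as a covariate, 6 of 10 were lower with a median of -0.22, and Cox8b measured -0.18 (edgeR adjusted p = 0.825), Ppargc1a -0.25 (0.799), Cox7a1 -0.97 (0.609), Dio2 -1.23 (0.719), Ucp1 -1.52 (0.733) and Acot11 -1.73 (0.477). The other 4 were above 0: Elovl3 (0.43), Plin5 (0.59), Kcnk3 (0.72) and Cidea (0.78). Macrophage markers summed to 244 to 479 TPM in PBS libraries 1 to 3, 3068 TPM in PBS library 4 and 1085 to 5078 TPM in LLC. Progenitor and fibroblast markers summed to 1248 to 2076 TPM in the first 3 PBS libraries, 6842 TPM in library 4 and 2128 to 8412 TPM in LLC. The B cell and lymph node list summed to 2347 TPM in LLC library 3 and 518 TPM in LLC library 1, against at most 122 TPM in the other 7 libraries. Endothelial markers summed to 375 to 548 TPM in PBS and 561 to 1001 TPM in LLC, and markers of sympathetic nerve and Schwann cells to 509 to 917 TPM in PBS and 179 to 493 TPM in LLC. The groups did not overlap in either of these sums. Of the single genes tested in these 2 lists, 7 of 8 endothelial genes were above 0 and 0 of 5 nerve genes were, where 51.9% of all genes were. In edgeR 0 passed, with 4 and 2 at an unadjusted p under 0.05, beside 3164 of the 13564 genes tested. The part of these cell types in the difference was not tested.

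**Figure D5:**
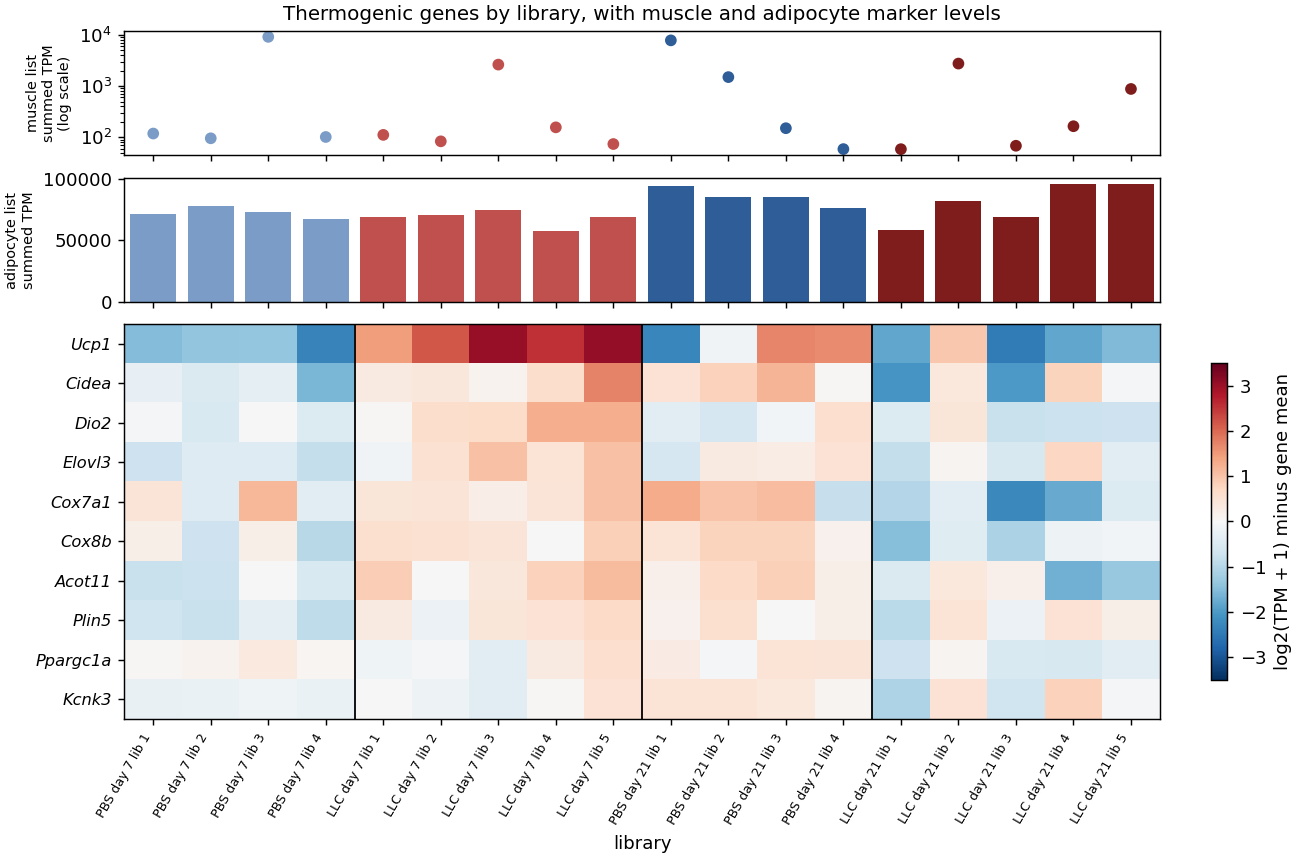
Map of the 10 genes (rows) in the 18 libraries (columns), coloured by log2(TPM + 1) minus the mean of the gene, under the summed TPM of the muscle list (points, log scale) and of the fat cell list (bars, from 0). The 5 LLC libraries of day 7 form the red block of the Ucp1 row (14.1 to 45.6 TPM), and LLC libraries 1 and 3 of day 21, low in fat cell markers (58522 and 68840 TPM), are blue in most rows.

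Whether the tumour effect itself changed between the days was tested as 1 contrast over all 18 libraries. It was negative for 10 of 10 genes, with a median of -2.30 where the median of all genes was 0.05. Acot11 changed by -3.39 ± 0.70 (edgeR adjusted p = 0.042). It was 1 of 10 members past the threshold, beside 0.415% of 13975 genes. Ucp1 had the most negative value, -7.40 ± 1.63, and did not pass (adjusted p = 0.0571). Next came Elovl3 at -3.84 ± 1.38 (0.157), Dio2 at -3.11 ± 1.20 (0.182), Cox7a1 at -2.39 ± 0.75 (0.115), Cidea at -2.22 ± 0.88 (0.194) and Cox8b at -1.91 ± 0.55 (0.0952). Plin5 measured -1.30 ± 0.49 (0.176), Ppargc1a -0.82 ± 0.47 (0.364) and Kcnk3 -0.56 ± 0.56 (0.616), all adjusted over all genes in edgeR.

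The Acot11 call sat close to the threshold. It was lost without any 1 of the 4 PBS or 5 LLC libraries of day 7, without PBS library 1, 2 or 3 of day 21 and without LLC library 3 of day 21, with adjusted p from 0.0582 to 0.119 and differences from -3.65 to -3.21. It held without PBS library 4 of day 21 (adjusted p = 0.00672) and without LLC library 1, 2, 4 or 5 (0.00651 to 0.0468). Other members passed in some of these fits. Without PBS library 4 of day 21, Ucp1 (adjusted p = 0.0157), Cox7a1 (-2.71, 0.022) and Cox8b (-2.05, 0.0349) passed beside Acot11. Without LLC library 2 of day 21, Ucp1 (0.00659) and Dio2 (-4.79, 0.0267) did, and without LLC library 1, Ucp1 (0.0462). Calls over all genes rose as well without PBS library 4, as given below, and are not given for the other single libraries left out. Without the 6 libraries high in muscle genes Ucp1 passed (-10.90, 0.0299) and Acot11 did not (-4.29, 0.129), and calls over all genes are not given for that fit. LLC library 2 of day 21 is among these 6, and without it alone Ucp1 was at -9.60. The part of muscle in this shift was not tested. DESeq2 called 4 members (Ucp1, Cox7a1, Cox8b and Acot11) beside 2.42% of all genes, all lower. Without LLC libraries 1 and 3 of day 21 all 10 remained negative with a median of -1.79 and 0 passed (Acot11 -3.34, adjusted p = 0.0701), and with the fat cell covariate 9 were negative with a median of -1.25 and 0 passed.

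The same libraries can be read by day within a treatment, and these comparisons share them with those above. In PBS fat 10 of 10 genes were higher at day 21 than at day 7, with a median log2 difference of 1.08, and 0 passed in edgeR where 3.21% of genes did. Of all genes tested 50.9% were higher, with a median of 0.01. At an unadjusted p under 0.05 there were 6 members, and 2850 of the 13975 genes tested. The values of these 6 members were 3.72 ± 1.25 for Ucp1, 2.79 ± 1.10 for Elovl3, 1.64 ± 0.52 for Acot11, 1.50 ± 0.66 for Cidea, 1.17 ± 0.37 for Plin5 and 0.99 ± 0.41 for Cox8b. TPM of the 2 days did not overlap, with day 21 higher, for Cidea, Acot11, Plin5 and Kcnk3, and for 1.77% of all genes. DESeq2 called Ucp1, Acot11 and Plin5 beside 2.81% of genes called higher, and a fit of the PBS libraries alone called Acot11, Kcnk3 and Plin5. The calls over all genes in the fit of PBS libraries alone are not given here, so its calls cannot be set beside a share. Cell markers moved with the day as well. Progenitor and fibroblast markers summed to 6703 to 10208 TPM at day 7 and 1248 to 6842 TPM at day 21, with 10 of 10 lower, 4 past the threshold in edgeR and a median of -1.36. Macrophage markers summed to 1872 to 3739 TPM at day 7 and 244 to 3068 TPM at day 21, with 10 of 10 lower, 1 past the threshold and a median of -1.05. Of the 15 fat cell markers 14 were higher, with a median of 0.46 and 0 past the threshold, and their sum went from 67435 to 78224 TPM at day 7 to 76483 to 94597 TPM at day 21. The part of these markers in the difference was not tested. With the fat cell covariate the median was 0.41, and Cox7a1 (-0.20) and Ppargc1a (-0.17) were lower.

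In LLC fat 9 of 10 genes were lower at day 21 than at day 7, with a median of -0.99, and 0 passed in edgeR where 1.77% of genes did. Kcnk3 was the exception at 0.24 ± 0.37. Of all genes tested 57.8% were higher at day 21, with a median of 0.05. At an unadjusted p under 0.05 there were 5 members, and 2600 of the 13975 genes tested. The 5 were Ucp1 (-3.67 ± 1.04), Dio2 (-2.45 ± 0.81), Acot11 (-1.75 ± 0.46), Cox7a1 (-1.68 ± 0.52) and Cox8b (-0.92 ± 0.37). TPM did not overlap, with day 21 lower, for Ucp1, Cox7a1 and Cox8b, and for 1.09% of genes. DESeq2 called Ucp1, Dio2, Cox7a1 and Acot11 beside 2.7% of genes called lower. With the fat cell covariate edgeR called Ucp1, Cox7a1, Cox8b and Acot11, and calls over all genes rose as well, as given below. Day of collection cannot be told apart from anything else that differed between the collections.

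Genes that govern this programme were examined next, from lists chosen by name with earlier results of these data known. Among 22 regulators of thermogenic transcription, 0 passed in any of the 3 tumour comparisons. Their medians were 0.06 at day 7, -0.15 at day 21 and -0.04 between days. At an unadjusted p under 0.05 there were 4, 6 and 5 of the 22. Of all genes tested there were 1144 of 13445, 3164 of 13564 and 2540 of 13975 in the same comparisons. Cebpb, a factor that cyclic AMP induces, measured 106 ± 19.2 TPM in PBS and 164 ± 21.2 TPM in LLC at day 7 (log2 0.63 ± 0.16, edgeR adjusted p = 0.399) and 144 ± 43.7 and 103 ± 23 TPM at day 21 (-0.62 ± 0.24, 0.169). Prdm16, which maintains brown and beige identity, measured 4.97 ± 1.03 and 5.61 ± 1.69 TPM at day 7 and 5.09 ± 1.28 and 3.68 ± 1.24 TPM at day 21 (-0.69 ± 0.24, adjusted p = 0.142). Esrra, an orphan receptor that drives mitochondrial genes with Ppargc1a, measured 40.5 ± 10.2 TPM in PBS and 25.9 ± 5.58 TPM in LLC at day 21 (-0.83 ± 0.20, adjusted p = 0.078). At day 7 Esrrg, its relative, measured log2 1.00 ± 0.40, Ebf2, a factor of brown precursors, -0.40 ± 0.13 and Rxrg, a retinoid receptor, -0.36 ± 0.13, with adjusted p from 0.458 to 0.555. Creb1, which binds the cyclic AMP element, measured 0.42 ± 0.14 at day 21 (0.121).

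Of 15 genes of adrenergic input and its brakes, 13 could be tested and 0 passed in the tumour comparisons. Their medians were -0.01 at day 7, -0.39 at day 21 and -0.39 between days. Adrb3, the main beta receptor of mouse fat cells, measured 223 ± 78.3 TPM in PBS and 263 ± 98.2 TPM in LLC at day 7 and 282 ± 62.6 and 246 ± 169 TPM at day 21 (log2 0.23 ± 0.28 and -0.39 ± 0.42, edgeR adjusted p = 0.872 and 0.585). Adrb1, another beta receptor, measured 9.56 ± 6.72 TPM in PBS and 2.02 ± 1.44 TPM in LLC at day 21 (-2.42 ± 0.67, adjusted p = 0.0986). Adra2a, an alpha receptor that lowers cyclic AMP, measured 0.392 ± 0.123 and 1.85 ± 1.29 TPM there (1.99 ± 0.53, adjusted p = 0.0907). Chosen after its value was seen, its change with day in PBS was -1.75 ± 0.44 (adjusted p = 0.0414). Prkaca, the catalytic subunit of protein kinase A, measured 171 ± 26.3 and 103 ± 21 TPM at day 21 (-0.89 ± 0.17, adjusted p = 0.0634), and Prkar2b, a regulatory subunit, -1.05 ± 0.32 (0.113). Between days Gnas, the G protein subunit that couples the receptors to cyclic AMP, measured -0.44 ± 0.14 (0.131). At day 7 the smallest p values belonged to Tshr (-0.21 ± 0.09), Adrb1 (0.43 ± 0.20), the phosphodiesterase Pde4d (0.47 ± 0.28) and Adra2a (-0.42 ± 0.25), with adjusted p from 0.567 to 0.703.

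Among 29 further genes enriched in brown and beige fat, 26 were tested at day 7, and 24 of them were higher in LLC with a median of 0.34. At day 21 the median was -0.63 and 4 of 27 lay above 0. Of all genes tested 51.1% lay above 0 at day 7 and 51.9% at day 21. None of the listed genes passed on either day in edgeR, with 8 and 11 at an unadjusted p under 0.05. Of all genes tested 1144 of 13445 and 3164 of 13564 were under it. In the difference between days Otop1, a proton channel named in the title of the series, changed by -3.78 ± 0.79 (adjusted p = 0.044). It measured 4.59 ± 0.93 TPM in PBS and 10 ± 1.24 TPM in LLC at day 7, and 10.4 ± 3.23 and 1.88 ± 1.54 TPM at day 21. Slc27a2, a fatty acid transporter, measured log2 2.11 ± 0.63 at day 7, Pdk4, which restrains glucose oxidation, 0.90 ± 0.28, and Gk, glycerol kinase, 0.56 ± 0.16 (adjusted p from 0.401 to 0.429). At day 21 the thiolase Acaa2 measured -0.95 ± 0.21, S100b, a calcium-binding protein, -1.26 ± 0.29, the deacylase Sirt3 -0.70 ± 0.18 and Tbx1, a marker of beige cells, 1.81 ± 0.48 (adjusted p from 0.0728 to 0.0903). In LLC, with day, Otop1 changed by -2.39 ± 0.54 (adjusted p = 0.0399) and Tnfrsf9, another beige marker, by 1.73 ± 0.41 (0.0428), both chosen after their values were seen. Of 5 brown depot markers 4 were tested and 0 passed: Lhx8 measured -0.54 ± 0.29 at day 7 and 0.96 ± 0.46 at day 21, Eva1a 0.51 ± 0.26 and 0.91 ± 0.30, Epsti1 0.15 ± 0.23 and 0.69 ± 0.52 and Meox2 0.06 ± 0.10 and 0.12 ± 0.15.

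Relatives of the effector genes give a measure of the family as a whole. Of 32 such paralogs 26 were tested, 0 passed within a day, and their medians were 0.04 at day 7 and -0.23 at day 21. Between days Plin2, the perilipin of many cell types, changed by -1.30 ± 0.26 (edgeR adjusted p = 0.0415), from 394 ± 46.8 TPM in PBS and 494 ± 82.6 TPM in LLC at day 7 to 489 ± 43.6 and 283 ± 86 TPM at day 21. Within LLC, Acot4 rose from 2.23 ± 0.525 to 6.4 ± 2.19 TPM between the days (log2 1.60 ± 0.36, adjusted p = 0.0418), a gene chosen after its values were seen, and the sign was opposite to that of Acot11. Among the other relatives of Acot11, Acot1 measured 1.58 ± 0.395 TPM in PBS and 5.77 ± 6.88 TPM in LLC at day 21, Acot2 21.9 ± 4.38 and 14.5 ± 2.84 TPM, Acot7 25.9 ± 1.96 and 25.2 ± 13.3 TPM, Acot8 10.6 ± 1.96 and 8.96 ± 1.76 TPM and Acot13 57.8 ± 9.92 and 54.2 ± 7.37 TPM. Acot12 stayed at or below 0.167 TPM. Elovl6, the elongase of newly made fatty acids, measured 131 ± 53.3 TPM in PBS and 51.2 ± 55.4 TPM in LLC at day 21, Elovl5 102 ± 7.97 and 97.3 ± 17.5 TPM, Elovl1 49.2 ± 7.11 and 61.2 ± 23.9 TPM, and Elovl4 and Elovl7 stayed at or below 1.58 TPM. Cidec measured 2522 ± 132 and 2373 ± 420 TPM and Cideb 0.857 ± 0.511 and 0.214 ± 0.193 TPM on that day.

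Other relatives at day 21 were Plin1, at 1592 ± 266 TPM in PBS and 921 ± 211 TPM in LLC, Plin3 at 21.6 ± 1.7 and 20.5 ± 4.96 TPM and Plin4 at 809 ± 233 and 628 ± 250 TPM. Ucp2 measured 112 ± 96.2 and 205 ± 70.8 TPM and Cox7a2l, which joins respiratory complexes, 150 ± 24.1 and 227 ± 56.1 TPM. Ppargc1b, the nearest relative of Ppargc1a, measured 4.16 ± 1.32 and 4.02 ± 2.44 TPM and Pprc1 6.06 ± 1.14 and 13.1 ± 6.56 TPM. Among the potassium channels related to Kcnk3, Kcnk1 measured 1.94 ± 0.767 and 1.72 ± 1.24 TPM, Kcnk2 9.2 ± 2.2 and 6.81 ± 1.71 TPM, Kcnk5 1.24 ± 1.02 and 5.15 ± 2.66 TPM and Kcnk6 3.42 ± 2.39 and 6.92 ± 4.62 TPM. Kcnk9, the closest relative, stayed at or below 0.009 TPM. Dio1 reached 0.713 TPM in PBS and 0.062 TPM in LLC on that day, and Dio3 0.076 and 0.337 TPM.

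The 10 genes varied together over the 18 libraries, as a description of libraries that share depth, cell content and group. All 45 pairwise Pearson correlations of log2(CPM + 1) were above 0, from 0.14 for Dio2 with Kcnk3 to 0.91 for Cidea with Cox8b, with a median of 0.56. Ucp1 lay closest to Dio2 (0.87), Elovl3 (0.77) and Acot11 (0.73) and farthest from Kcnk3 (0.24), Ppargc1a (0.36) and Cox7a1 (0.38). Among 13039 genes outside the set, those most like Ucp1 were Dnaja4 (0.79), Elovl5 (0.78), Gbp6 (0.74), Rasal2 (0.70), Ifi44 (0.70), Igtp (0.69), Ttyh1 (0.68) and Cpt1b (0.68), where the median gene was at -0.024. Mean levels of Gbp6 were 34.1 TPM in PBS and 58.5 TPM in LLC at day 7 and 39.4 and 26.6 TPM at day 21. Most like the mean of the 10 were Cpt1b (0.92), Cxadr (0.88), Slc36a2 (0.86), Sucla2 (0.85), Pank1 (0.85), Hadha (0.84), Hadhb (0.84) and Dnaja4 (0.84). Cpt1b, the muscle and brown fat form of the enzyme that admits fatty acids to mitochondria, averaged 3.39 and 10.6 TPM in PBS and LLC at day 7 and 9.91 and 2.2 TPM at day 21.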

How the data were processed

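RNA of 18 libraries was made by poly(A) selection with a NEBNext Ultra kit, per the labels' protocols. Per the submitters' processing notes, fastp 0.23.0, RSEM and the mouse build mm10 (GRCm38) were used; for the aligner, the annotation and the tool behind the authors' comparison, no name is given in the sources used here. The authors deposited, for each day, RSEM estimated counts (all of them whole numbers), TPM, a log2 ratio of mean TPM and a p-value with its FDR. From the counts, edgeR 4.0.16 (R 4.3.3; TMM, filterByExpr, quasi-likelihood test, Benjamini-Hochberg over all genes tested, threshold 0.05) compared LLC with PBS within each day, and 1 fit of 18 libraries gave the difference between days and the day comparisons. SE is the log2 difference divided by the square root of F, an approximation. Total counts of 14566155 to 18969387 set the precision. DESeq2 1.42.0, limma 3.58.1 on log2(TPM + 1) and log2(TPM + 0.1), other scalings and filters, covariates and left-out libraries were alternatives. The scripts were tested on simulated data. In 32 replicate pairs the chi-square per gene was at least 15.8, so no library was counted as a copy of another.

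The named genes are the 10 members; the other listed genes past the threshold within a day or between days, or else the 4 with the smallest p in a pathway list; the paralogs as levels; and the 8 genes most correlated with Ucp1 and with the mean of the members. Marker lists are given as sums, and Tek, an endothelial gene, changed between days by 0.99 ± 0.20 (adjusted p = 0.0415). The members and lists were chosen with earlier results of these data known.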

Additional observations from a re-analysis of the deposited data

Results flagged for a closer look

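In 4 of 40 combinations of gene and group, 1 library lay far from the rest by Dixon's criterion (critical value 0.829 for 4 libraries and 0.71 for 5), which chance meets in about 1 in 20. Ucp1 reached 9.48 TPM in LLC library 2 of day 21, where the other 4 were at or below 0.867 TPM. Dio2 reached 1.41 TPM in the same library, against at most 0.302 TPM in the others. Cidea reached 409 TPM in LLC library 5 of day 7, against at most 186 TPM in the others. Cox7a1 reached 22.2 TPM in that library, against at most 14.7 TPM.

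The tumour effect on Acot11 differed between the days by -3.39 on the log2 scale (edgeR adjusted p = 0.042), from 1.64 at day 7 to -1.78 at day 21. Over 32 alternatives the difference ran from -4.29 to -2.22 and adjusted p from 0.000289 to 0.129.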

How the results depend on the processing

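The number of members past the threshold was 1 at day 7, 0 at day 21, 1 for the difference between days and 0 for each comparison of days. DESeq2 gave 5, 3, 4, 3 (PBS) and 4 (LLC). One fit of 18 libraries gave 0 at day 7 and 3 at day 21, where calls over all genes rose as well, as given below. Leaving out 1 library at a time gave 0 to 1 at day 7, 0 to 1 at day 21, 0 to 4 between days, 0 to 1 for days in PBS and 0 to 3 for days in LLC. Without the 6 libraries high in muscle genes, LLC library 2 of day 21 among them, there were 0 at day 7 and 1 for days in LLC. Between days that setting and limma on log2(TPM + 1) kept the count at 1 with another gene: Ucp1 passed (-10.90, adjusted p = 0.0299, and -5.70, 0.037) and Acot11 did not (-4.29, 0.129, and -2.22, 0.0659). Between days, total-count scaling, limma on log2(TPM + 0.1), the fat cell covariate and leaving out LLC libraries 1 and 3 of day 21 each gave 0. A fit of the PBS libraries alone gave 3, and its calls over all genes are not given here. For days in LLC, limma on log2(TPM + 1) and the muscle covariate gave 1 each and the fat cell covariate gave 4. The fat cell covariate and the omission of LLC libraries 1 and 3 were chosen after seeing the data. Where calls over all genes are not given below for a setting, its member count cannot be set beside a share. Such counts are not read as particular to the members. The cause of these changes was not tested.

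Signs turned as follows. At day 7 Ppargc1a was 0.14 without the libraries high in muscle genes and ran from -0.31 to 0.04 on leaving out 1 library (0.04 without LLC library 3), and Cox7a1 from -0.02 (without PBS library 2 or 4) to 0.67. At day 21 the fat cell covariate gave Cidea 0.78, Kcnk3 0.72, Elovl3 0.43 and Plin5 0.59, omission of LLC libraries 1 and 3 gave Kcnk3 0.19, Elovl3 0.22 and Plin5 0.23, and Plin5 ran from -0.50 to 0.06 (without LLC library 1) on leaving out 1 library. Between days Kcnk3 was 0.18 with the fat cell covariate. For days in PBS that covariate gave Cox7a1 -0.20 and Ppargc1a -0.17, and Dio2 ran from -0.11 (without PBS library 4 of day 21) to 0.96 on leaving out 1 library. For days in LLC Kcnk3 was -0.09 and -0.10 in limma and ran from -0.23 (without LLC library 4 of day 21) to 0.46 on leaving out 1 library, and Plin5 was 0.32 without libraries 1 and 3 and ran from -0.42 to 0.09 (without LLC library 1 of day 21; 0.00 without LLC library 5 of day 7).

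Over all genes the calls at day 7 went from 1 to 77 in DESeq2. At day 21 they went from 12 to 1545 in DESeq2, 2660 in the fit of 18 libraries and 1277 without PBS library 4. Between days they went from 58 to 725 in DESeq2 and 1222 without PBS library 4 of day 21. For days in PBS they went from 449 to 1099 in DESeq2, 74 with the fat cell covariate and 1692 without PBS library 4 of day 21, and for days in LLC from 248 to 813, 786 and, without libraries 1 and 3, 1188. Total-count scaling moved the median of all genes from 0.02 to 0.22 at day 21 and from 0.05 to 0.21 between days, with 10 of 10 members still lower in both. Its calls were 18 higher and 0 lower at day 21, against 9 and 3, and 31 and 8 between days, against 37 and 21. For days in PBS it gave 19 higher and 254 lower, against 97 and 352, and for days in LLC 55 and 39, against 118 and 130.

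Whether the replicate numbers pair the libraries was not settled. Same-numbered libraries correlated at 0.15, -0.02, 0.19 and 0.24 at day 7 and at -0.28, 0.33, 0.08 and -0.16 at day 21. At day 7 PBS libraries 1, 3 and 4 had the LLC library of their own number as best match, and library 2 did not. At day 21 only PBS library 2 had it. With the replicate block 1 member passed at day 7 (Ucp1, 5.04, edgeR adjusted p = 0.0325), 0 at day 21 and 0 between days (Acot11 -3.31, adjusted p = 0.0536). The unblocked fit of the same libraries, without LLC library 5, also gave 0 between days (Acot11 -3.04, 0.0731). A block within a day could not be estimated for the comparisons of days, and a block across days gave 0 in each. Genes past the threshold with the block numbered 2 at day 21 and 75 between days.

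Low counts limit several members: Elovl3 had 0 to 43 counts over the libraries, Cox7a1 5 to 97, Dio2 3 to 210 and Ucp1 0 to 654, and Elovl3 did not pass the filter in some alternatives.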
